A study of Mus musculus with 16 samples.

Results

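Kit, Dazl, Zbtb16, Gfra1, Nanos2, Nanos3, Sohlh1, Sohlh2, Dmrt1, and Id4 are genes of spermatogonial stem and progenitor cells, the mitotic cells from which sperm are made. These 10 genes were chosen by name from the 21938 protein-coding genes that GENCODE vM21 places on the autosomes, X, and Y of mm10, and they were examined in haploid spermatids, cells that have passed the spermatogonial stages. AutoCUT&RUN, in which an antibody brings micrococcal nuclease to a histone mark and the DNA released there is sequenced from both ends, was run on spermatids sorted live by Hoechst and propidium iodide staining from the testes of 2-month-old, non-mated males. KO males (ΔH2A.B/Y) carried mutations in all 3 X-linked H2A.B genes (H2afb1, H2afb2, and H2afb3), made with CRISPR/Cas9 and kept as 1 strain backcrossed to C57BL/6J, and WT males (+/Y) were their siblings. Each of 3 histone marks (H3K4me3, H3K27me3, H3K9me3) and IgG, the antibody control, was profiled in 2 KO and 2 WT samples, which gave 16 libraries in 8 groups of 2.

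Spermatogonial stem cells are kept by signals from the surrounding somatic cells, above all GDNF, which acts through the receptor Gfra1 with Ret. Within the stem and progenitor pool, the transcriptional repressor Zbtb16 (also called PLZF), the helix-loop-helix inhibitor Id4, and the RNA-binding protein Nanos2 act for the undifferentiated state, and Sohlh1, Sohlh2, and the receptor tyrosine kinase Kit act in the step toward differentiation. Of the marks, H3K4me3 is typical of promoters in use, H3K27me3 is laid down by Polycomb complexes at silenced genes, and H3K9me3 marks heterochromatin.

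Over its 4 libraries, H3K4me3 had 7708003 distinct fragments, H3K27me3 had 7609887, H3K9me3 had 23146258, and IgG had 791157. Single libraries held 784360 to 3394830 fragments for H3K4me3, 200457 (WT replicate 2) to 3806026 (KO replicate 1) for H3K27me3, 5009169 to 6746382 for H3K9me3, and 159611 to 270598 for IgG. Marker genes were also counted: H3K4me3 exceeded IgG at the promoters of 9 of 10 spermatid genes (all but Prm1), 7 of 10 meiotic genes, and 10 of 10 housekeeping genes, against 43.6% of all coding genes. No other cell type was profiled, so these counts do not measure the purity of the sort. At 10 genes of testis somatic cells the mean H3K4me3 level was 0.115 to 1.73 fragments per 1000000 (FPM), and only 1 of them reached the 10 fragments needed for the test, which at this depth could show no excess over IgG. Over gene bodies, Amh exceeded IgG in H3K4me3 and Wt1 lay below it (quasi-Poisson test, adjusted p = 0.0383 and 0.0035). With the WT libraries alone the promoter test of H3K4me3 called 0 of all promoters in place of 9623. H3K27me3 exceeded IgG at the promoters of 6 of the 10 somatic genes. It did so at 0 of the spermatid, meiotic, and housekeeping genes, most of which had too few fragments to test. A level measured over many cells does not tell whether fewer cells carry a mark or each cell carries less of it.

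At their gene starts the 10 genes fell into unlike chromatin states. Dazl and Id4 carried H3K4me3 and almost no H3K27me3. Kit, Gfra1, Zbtb16, Dmrt1, and Sohlh2 carried H3K27me3, Sohlh1 carried both marks, and Nanos2 and Nanos3 had few fragments of either. Some of these states depended on the window: within 2000 bp of its start Nanos3 exceeded IgG in both marks. Within 500 bp, Sohlh1 no longer exceeded IgG in H3K4me3. None of the 10 genes with enough fragments to test passed an adjusted p of 0.05 between KO and WT, at the gene start or over the gene body. Numbers of fragments are given below in the order KO replicate 1, KO replicate 2, WT replicate 1, and WT replicate 2, the promoter is the region within 1000 bp of the gene start, each fragment is counted at its midpoint, and FPM is fragments per 1000000 distinct fragments of the library.

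Sequences around the start show how unlike these promoters are in CG dinucleotides, since H3K4me3 and Polycomb marks are often found on CG-rich DNA in mammals. RefSeq promoters of GRCm38.p6, which run from 250 bases before to 50 after the annotated start, were matched by symbol for 8 of the 10 genes, all but Zbtb16 and Dmrt1. The 6 printed are the 2 with H3K4me3 alone (Dazl and Id4), the 1 with both marks (Sohlh1), 2 with H3K27me3 (Kit and Gfra1), and 1 with neither (Nanos2), 5′ to 3′ with every CG in capitals.
Dazl: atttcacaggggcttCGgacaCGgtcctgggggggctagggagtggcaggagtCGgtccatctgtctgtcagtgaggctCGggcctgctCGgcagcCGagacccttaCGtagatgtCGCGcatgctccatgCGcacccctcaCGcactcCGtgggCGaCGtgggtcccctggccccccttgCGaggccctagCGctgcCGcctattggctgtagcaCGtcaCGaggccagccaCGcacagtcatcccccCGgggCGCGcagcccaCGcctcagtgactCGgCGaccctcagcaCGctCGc
Id4: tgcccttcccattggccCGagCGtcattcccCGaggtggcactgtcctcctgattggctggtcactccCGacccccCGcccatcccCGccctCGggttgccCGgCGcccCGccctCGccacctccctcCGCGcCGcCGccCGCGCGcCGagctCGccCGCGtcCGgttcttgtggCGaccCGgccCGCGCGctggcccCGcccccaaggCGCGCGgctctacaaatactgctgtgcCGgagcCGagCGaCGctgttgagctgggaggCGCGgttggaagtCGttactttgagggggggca
Sohlh1: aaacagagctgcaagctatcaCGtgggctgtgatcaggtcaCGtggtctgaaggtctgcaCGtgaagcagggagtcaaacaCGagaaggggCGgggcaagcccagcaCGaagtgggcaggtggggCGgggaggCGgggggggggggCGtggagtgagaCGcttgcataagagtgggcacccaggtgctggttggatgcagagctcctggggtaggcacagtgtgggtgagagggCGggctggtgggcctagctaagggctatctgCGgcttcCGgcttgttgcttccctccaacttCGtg
Kit: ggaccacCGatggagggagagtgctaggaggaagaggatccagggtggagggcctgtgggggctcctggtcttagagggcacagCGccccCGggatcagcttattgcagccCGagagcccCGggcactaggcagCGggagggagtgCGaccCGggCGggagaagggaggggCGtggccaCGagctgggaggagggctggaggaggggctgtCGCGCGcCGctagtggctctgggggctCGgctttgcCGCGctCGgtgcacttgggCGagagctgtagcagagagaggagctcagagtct
Gfra1: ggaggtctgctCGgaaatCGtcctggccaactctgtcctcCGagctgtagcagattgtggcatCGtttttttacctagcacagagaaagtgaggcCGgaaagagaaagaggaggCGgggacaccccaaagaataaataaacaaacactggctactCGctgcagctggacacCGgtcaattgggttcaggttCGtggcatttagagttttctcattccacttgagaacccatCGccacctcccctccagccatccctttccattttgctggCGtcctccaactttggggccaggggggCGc
Nanos2: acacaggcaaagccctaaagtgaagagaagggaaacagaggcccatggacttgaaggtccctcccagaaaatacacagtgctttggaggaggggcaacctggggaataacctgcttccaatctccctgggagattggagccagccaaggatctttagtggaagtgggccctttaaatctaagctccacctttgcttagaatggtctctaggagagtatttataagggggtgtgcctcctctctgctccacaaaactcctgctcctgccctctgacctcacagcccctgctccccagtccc

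These windows lie at chr17:50293571-50293870, - strand, for Dazl, chr13:48260866-48261165, + strand, for Id4, chr2:25847199-25847498, - strand, for Sohlh1, chr5:75574737-75575036, + strand, for Kit, chr19:58455349-58455648, - strand, for Gfra1, and chr7:18987274-18987573, + strand, for Nanos2. Id4 held 39 CG dinucleotides in 300 bases, more than 95.5% of the 32841 mouse promoters in the same table, whose median is 7. Dazl held 28, Kit 20, Sohlh2 17, Sohlh1 14, Gfra1 12, Nanos3 3, and Nanos2 0. Among these 8 promoters, Id4 and Dazl, with H3K4me3 and little H3K27me3, had the most, and Nanos2 and Nanos3 had the fewest. The E-box CANNTG, the form of site that helix-loop-helix proteins such as Sohlh1 and Sohlh2 read, was searched on 1 strand, since its reverse complement has the same letters. It occurred 5 times in the Sohlh1 window, 3 times in that of Gfra1, and 0 times in those of Id4 and Nanos2, and 72.3% of all promoters held at least 1. Within the 300 bases themselves, over 4 libraries per mark, 34 H3K4me3 and 1 H3K27me3 fragments were centered at Dazl, 11 and 0 at Id4, 4 and 14 at Sohlh1, 2 and 47 at Kit, 0 and 72 at Gfra1, and 1 and 0 at Nanos2. The GC box GGGCGG, searched on both strands and able to share 1 end letter with an E-box, occurred 5 times in the Id4 window and 3 times in that of Sohlh1, and 35.7% of all promoters held at least 1. For Gfra1, the RefSeq start lies 511 bp into the GENCODE gene, and for Nanos3 it lies 8665 bp into it.

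In mm10, the genes themselves span, with their strand, Kit (chr5:75574916-75656722, +), Dazl (chr17:50279395-50293636, -), Zbtb16 (chr9:48654297-48836222, -), Gfra1 (chr19:58235604-58455909, -), Nanos2 (chr7:18987400-18988962, +), Nanos3 (chr8:84173731-84185217, -), Sohlh1 (chr2:25842995-25847248, -), Sohlh2 (chr3:55182028-55209957, +), Dmrt1 (chr19:25505618-25604329, +), and Id4 (chr13:48261228-48266026, +). Antisense or noncoding genes overlap Nanos2 (Gm45058), Nanos3 (Mir181c and Mir181d), Gfra1 (Gm16277), and Id4 (A330033J07Rik and Gm49291). Histone marks on shared DNA cannot be assigned to 1 of 2 overlapping genes.

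**Figure D1:**
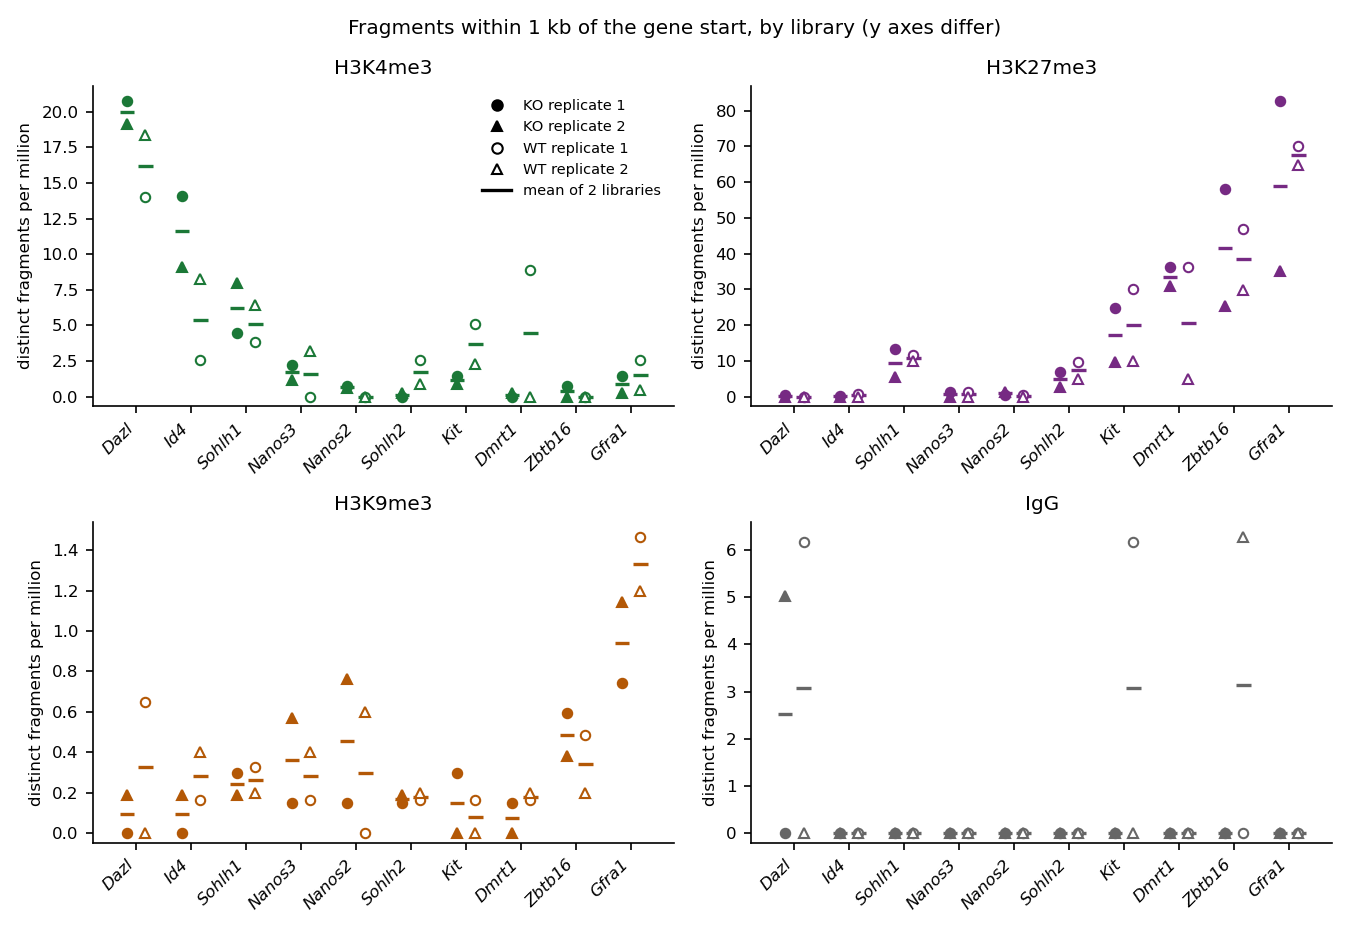
FPM within 1 kb of the gene start for the 10 genes, by target, with 1 point for each library, filled for KO and open for WT, circles for replicate 1 and triangles for replicate 2, and bars for the mean of 2 libraries. H3K4me3 is highest at Dazl (14.0 to 20.8 FPM), H3K27me3 is highest at Gfra1 (35.1 to 82.8 FPM), and IgG is above 0 only where single fragments fell at Dazl, Kit, and Zbtb16.

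Dazl, an RNA-binding protein that promotes translation in germ cells from their fetal stages through meiosis, had the most H3K4me3 of the set. Its promoter (gene start at position 50293636 of chromosome 17, on the - strand) held 28, 65, 11, and 40 H3K4me3 fragments, or 20.8, 19.1, 14.0, and 18.3 FPM. All 4 libraries were high, with a mean of 18.1 FPM ± 2.88 (SD, n = 4), above 83.5% of coding genes. H3K27me3 was nearly absent there, with 2, 0, 0, and 0 fragments. IgG held 0, 1, 1, and 0 fragments, so the H3K4me3 level was 7.39 times that of IgG, with a 95% interval from 2.01 to 61.6 that covers counting error only (quasi-Poisson test over all promoters, adjusted p = 0.00464).

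Id4, which binds helix-loop-helix factors and keeps them off DNA, was next in H3K4me3. Its promoter held 19, 31, 2, and 18 H3K4me3 fragments, or 14.1, 9.13, 2.55, and 8.25 FPM, and 1, 0, 2, and 0 H3K27me3 fragments. The mean H3K4me3 level lay above 62.2% of coding genes. WT replicate 1, the H3K4me3 library with the fewest fragments, was low. IgG held 0 fragments in its 4 libraries, and H3K4me3 was at least 2.40-fold higher than the 3 fragments that a count of 0 allows (adjusted p = 0.00689). The mark extended into the gene: the 1-kb bin with the most H3K4me3 near Id4 began 1000 bp after the start with 14, 25, 8, and 18 fragments, and it lay 104 bp from the start of the antisense gene A330033J07Rik, so counts there cannot be assigned to a strand. Over the Id4 body, 34, 55, 9, and 34 H3K4me3 fragments and 0 IgG fragments were counted (adjusted p = 0.00193).

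Sohlh1, a helix-loop-helix transcription factor needed for spermatogonial differentiation, carried both marks. H3K4me3 gave 6, 27, 3, and 14 fragments at its promoter (4.45, 7.95, 3.82, and 6.42 FPM), and H3K27me3 gave 51, 4, 34, and 2 (13.4, 5.62, 11.8, and 9.98 FPM). The mean lay above 55.9% of coding genes in H3K4me3 and above 82.5% in H3K27me3. IgG had 0 fragments, so H3K4me3 was at least 1.71-fold and H3K27me3 at least 3.15-fold higher than the limit that allows (adjusted p = 0.0151 and 0.00118). Both marks were present in each of the 4 libraries, and their peaks lay side by side: the 1-kb bin before the start held 17 H3K4me3 and 51 H3K27me3 fragments, the first bin of the gene held 33 and 40, and the next held 25 and 6. The levels of the 2 marks were not told apart (log2 difference of -0.88 ± 0.55, SE, adjusted p = 0.119), but in 1 of 16 alternative fits, with libraries scaled to their promoter fragments, H3K27me3 was the higher (adjusted p from limma-voom of 0.0324, and up to 0.712 over the alternatives). By a count of fragments, which is not the test against IgG, 13.4% of all coding genes had at least 10 of each mark at the promoter. In this set Sohlh1 and Kit did, though H3K4me3 at Kit did not pass the test against IgG.

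**Figure D2:**
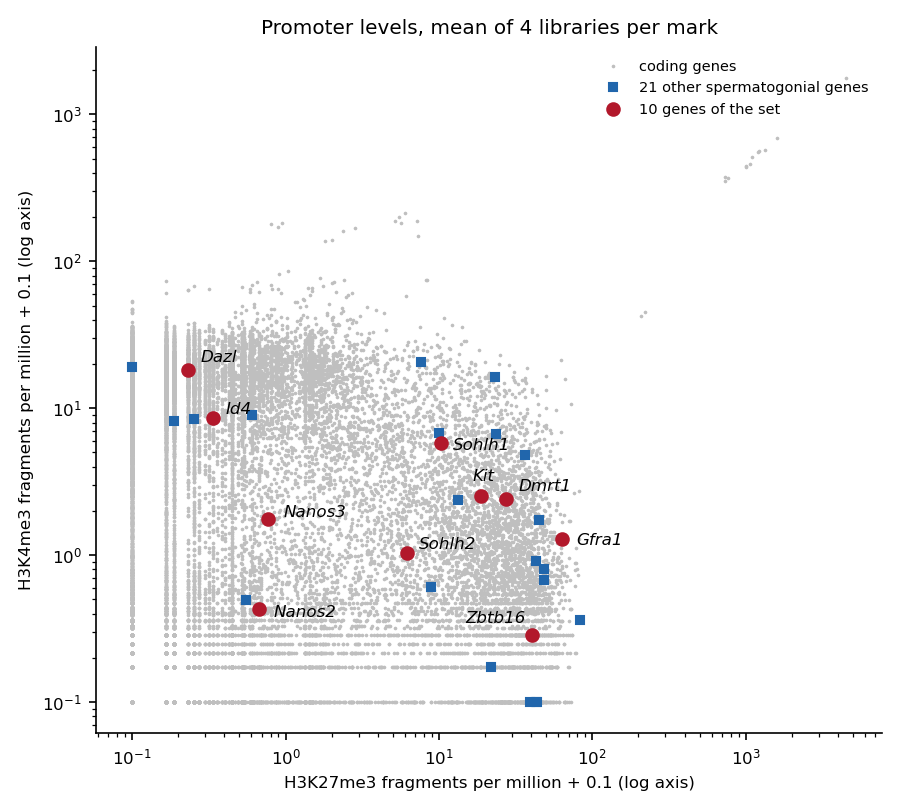
Mean H3K4me3 (y axis) and H3K27me3 (x axis) FPM within 1 kb of the gene start over 4 libraries per mark, plus 0.1, on log axes, for all coding genes (gray), 21 other spermatogonial genes (blue squares), and the 10 genes of the set (red, named). Dazl and Id4 lie at the upper left, Gfra1, Zbtb16, Dmrt1, and Kit at the right with little H3K4me3, and Sohlh1 between them.

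For H3K4me3, then, 3 of the 10 promoters exceeded IgG: Dazl, Id4, and Sohlh1. The share of all coding genes that did so was 43.6%, and among the 12887 promoters with at least 10 fragments it was 74.3%. Of the other 7, Kit (2, 3, 4, and 5 fragments) and Nanos3 (3, 4, 0, and 7) reached 10 fragments and did not pass (adjusted p = 0.756 and 0.143), and 5 had fewer than 10 fragments. Their H3K4me3 counts were 2, 1, 2, and 1 at Gfra1, 0, 1, 2, and 2 at Sohlh2, 0, 1, 7, and 0 at Dmrt1, 1, 2, 0, and 0 at Nanos2, and 1, 0, 0, and 0 at Zbtb16. In order of their mean H3K4me3 FPM, Dazl (18.1) was followed by Id4 (8.51), Sohlh1 (5.66), Kit (2.44), Dmrt1 (2.3), Nanos3 (1.65), Gfra1 (1.2), Sohlh2 (0.940), Nanos2 (0.333), and Zbtb16 (0.185), and of these neighbors only Dazl and Id4, and Sohlh1 and Kit, differed by more than the SD between libraries. The 3 calls were lost when libraries were scaled to their fragments at promoters, of which IgG had a mean share of 8.29% and H3K4me3 of 18.1%, and when only the WT libraries were used. In a 500 bp window 2 of the 10 genes were called, and Sohlh1 was lost. In a 2000 bp window 4 were called, with Nanos3 added (quasi-Poisson test, adjusted p = 0.0273).

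H3K27me3 was strongest at the receptor gene Gfra1. Its promoter (gene start at position 58455909 of chromosome 19, on the - strand) held 315, 25, 203, and 13 fragments, or 82.8, 35.1, 70.2, and 64.9 FPM, a mean of 63.2 ± 20.2 (SD, n = 4) that lies above 99.7% of coding genes. IgG had 0 fragments there, so the level was at least 19.3-fold higher (adjusted p = 0.000164). H3K27me3 covered several kb, with 271 fragments in the 1-kb bin before the start, 285 in the first bin of the gene, and 288 in the bin from 2000 bp after it, in which exon 3 lies. All 9 annotated Gfra1 transcripts start within this domain, between 0 and 1443 bp from the gene start, with 501 to 556 H3K27me3 and 6 to 8 H3K4me3 fragments around each.

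Zbtb16, a zinc finger repressor required to keep spermatogonial stem cells, had 221, 18, 136, and 6 H3K27me3 fragments at its promoter (58.1, 25.3, 47.0, and 29.9 FPM) and a single H3K4me3 fragment in KO replicate 1. IgG held 1 fragment, which gives a ratio of 39.6 (95% interval 7.07 to 1569, counting error only, adjusted p = 0.000326). Dmrt1, a DM-domain transcription factor of the male germ line and Sertoli cells, had 138, 22, 105, and 1 (36.3, 30.9, 36.3, and 4.99 FPM), with WT replicate 2 low. That library had 200457 fragments, and 3 fragments in it are 15 FPM. With 0 IgG fragments, the Dmrt1 level was at least 9.22-fold higher (adjusted p = 0.000145). Kit, the receptor for stem cell factor, had 94, 7, 87, and 2 H3K27me3 fragments (24.7, 9.83, 30.1, and 9.98 FPM), which was 19.8 times the level of IgG with its 1 fragment (95% interval 3.50 to 784, adjusted p = 0.00135). Sohlh2, the partner of Sohlh1, had 26, 2, 28, and 1 (6.83, 2.81, 9.68, and 4.99 FPM), at least 1.98-fold above IgG (adjusted p = 0.00618).

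With Sohlh1, H3K27me3 thus exceeded IgG at 6 of the 10 promoters, against 23.1% of all coding genes and 75.7% of the 6707 promoters with at least 10 fragments. The other 4 had fewer than 10 H3K27me3 and IgG fragments together and were not tested: Dazl, Id4, Nanos2 (2, 1, 1, and 0), and Nanos3 (5, 0, 4, and 0). The 6 calls remained in each fit that left out 1 library, and with the 2 WT libraries alone 3 of them passed. In a 2000 bp window 7 of the 10 genes were called, with Nanos3 added (quasi-Poisson test, adjusted p = 0.00462). In order of their mean H3K27me3 FPM, the 6 were Gfra1, Zbtb16, Dmrt1, Kit, Sohlh1, and Sohlh2. Zbtb16 and Dmrt1, and Dmrt1 and Kit, differed by less than the SD between libraries, and Sohlh2 was the only one of the 6 whose range over the 4 libraries stood clear of that of the next gene, Nanos3.

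**Figure D3:**
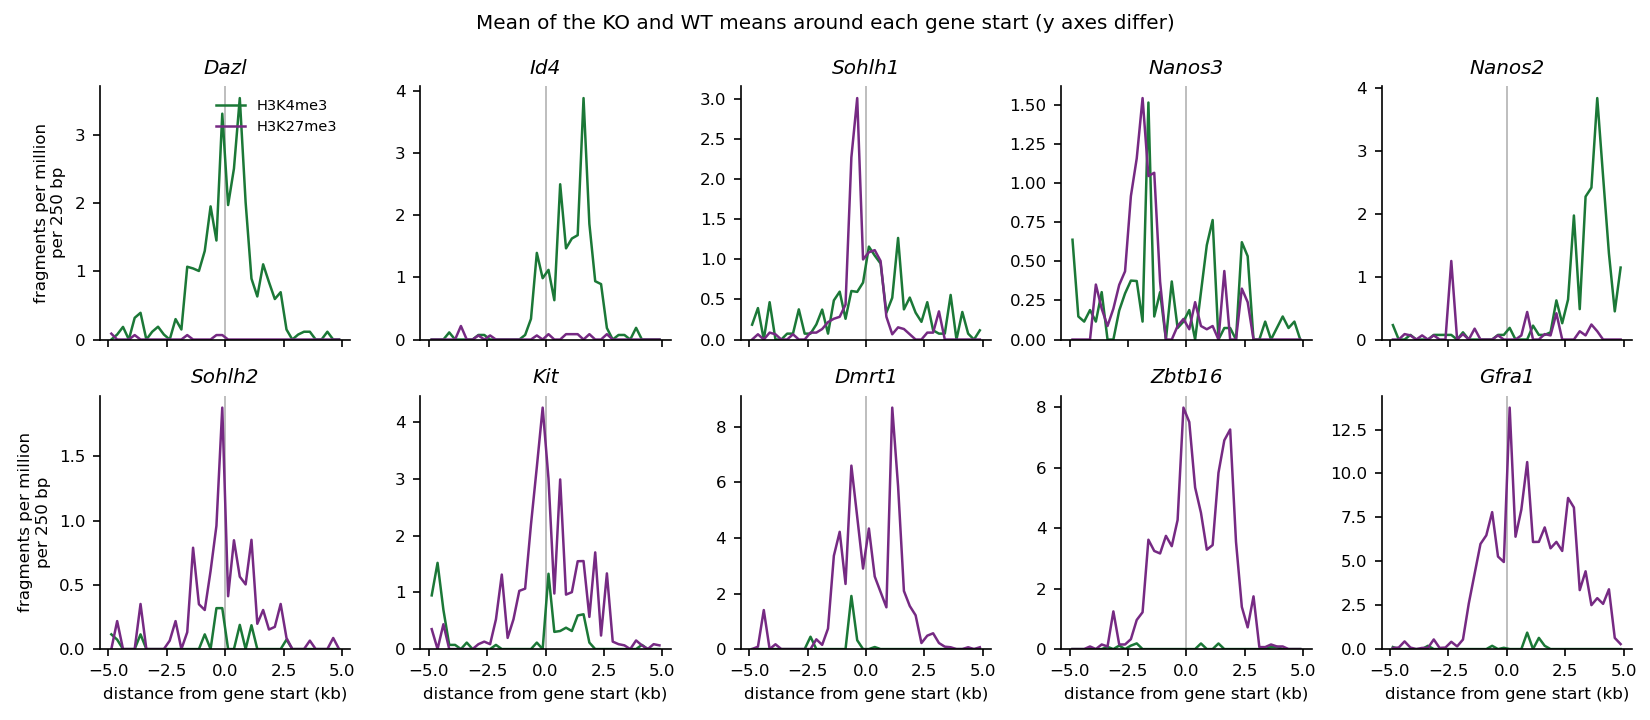
H3K4me3 (green) and H3K27me3 (purple) FPM in 250-bp bins (y axis) by distance from the gene start in kb (x axis), as the mean of the KO and WT means, for the 10 genes. H3K4me3 covers the starts of Dazl and Id4, H3K27me3 covers those of Sohlh2, Kit, Dmrt1, Zbtb16, and Gfra1, both meet at Sohlh1, and Nanos2 has H3K4me3 only toward its neighbor.

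The 2 marks were also compared directly at each promoter. Among the 9 genes with at least 10 fragments of both marks together, H3K4me3 was the higher mark at Dazl (log2 difference of 4.71 ± 0.78, SE) and Id4 (3.22 ± 0.83), with adjusted p from limma-voom of 4.08e-09 and 0.00014. H3K27me3 was the higher at Zbtb16 (-6.64 ± 0.76), Gfra1 (-5.53 ± 0.81), Dmrt1 (-5.29 ± 0.79), Kit (-3.52 ± 0.73), and Sohlh2 (-3.13 ± 0.83), where the largest adjusted p was 0.000237. These are 2 and 5 of the 9 genes, and over the 16648 promoters tested 59.5% were higher in H3K4me3 and 28.7% in H3K27me3. Sohlh1 and Nanos3 (adjusted p = 0.886) were not called, and Nanos2 was not tested. When libraries were scaled to their promoter fragments, Sohlh1 was called too, as higher in H3K27me3 (above). The median of all promoters was 3.12 on this log2 scale and became 2.77 with that scaling, and the 5 genes with more H3K27me3 stayed below 0 in every alternative fit. Id4 did not pass with the WT libraries alone (1.2).

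Nanos2 and Nanos3, RNA-binding proteins of the early germ line, stood apart from the rest. Nanos2 spans 1563 bp, and over its promoter it had 3 H3K4me3, 4 H3K27me3, 8 H3K9me3, and 0 IgG fragments in all. The H3K4me3 in its neighborhood lay past its end, with 10, 34, 7, and 21 fragments in the 1-kb bin that holds the start of the coding gene Mypop, 3845 bp from that of Nanos2. For Nanos3, the GENCODE gene start belongs to a noncoding processed transcript, and both coding transcripts begin 8665 bp further in, where H3K4me3 gave 0, 4, 1, and 4 fragments and H3K27me3 gave 0, 1, 0, and 0. The nearest H3K27me3 was upstream, with 27, 0, 26, and 0 fragments in the bin that begins 2000 bp before the gene start, and the most H3K4me3 lay within the long noncoding RNA gene Gm26887, with 7, 42, 2, and 20 fragments in the bin from 8000 bp before it. Over the whole body of Nanos3, which also contains Mir181c and Mir181d, H3K4me3 gave 4, 28, 3, and 26 fragments against 0 for IgG, at least 2.09-fold higher (adjusted p = 0.0212).

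Kit showed H3K4me3 away from its Polycomb-marked start. The 1-kb bin with the most H3K4me3 within 10 kb of the gene began 6000 bp before the start and held 16, 29, 8, and 21 fragments, with 0 for IgG and 0, 0, 1, and 0 for H3K27me3. Its neighbors held 45 and 26 fragments over the 4 libraries, against 2.83 per 1-kb bin if the fragments were spread evenly over the genome. No gene is annotated in that bin, and the nearest annotated start is that of Kit itself. Inside the gene, the start sites of 2 transcripts, Kit-208 and Kit-207, lie in intron 16 at 74178 and 74277 bp from the gene start. A shortened Kit transcript that begins within an intron toward the 3′ end is known from mouse spermatids. H3K4me3 within 1000 bp of the Kit-207 start was 5, 9, 2, and 3 fragments, with 1 H3K27me3 and 0 IgG fragments in all. The 4 libraries together had 2.46 FPM there, below the 3.79 FPM that 0 IgG fragments allow, so a difference from IgG was not detectable at this depth. The 1-kb bin from 75000 bp held 18 H3K4me3 fragments. At the other 4 annotated starts inside the gene, H3K4me3 was 0 to 3 fragments in all.

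Gfra1 and Dmrt1 had such distant sites too. Within Gfra1, H3K4me3 peaked in intron 5, with 15, 25, 9, and 15 fragments in the bin from 97000 bp after the start and 52 and 59 over the 4 libraries in the bins from 95000 and 96000 bp. No annotated transcript of Gfra1 starts there. IgG held 1, 3, and 0 fragments over its 4 libraries in the bins from 97000, 95000, and 96000 bp. In the bin from 95000 bp, H3K4me3 was 6.75 FPM, and 3 IgG fragments are 3.79 FPM. Over the whole Gfra1 body, H3K4me3 was 1.11 times IgG and was not called (quasi-Poisson test, adjusted p = 0.742). A further stretch lay past the end of the gene, which is 220306 bp long. It had 53, 34, and 50 H3K4me3 fragments in the bins from 222000, 223000, and 224000 bp, and 0 of IgG in each. For Dmrt1, H3K27me3 was higher past the gene end than at the start: the bin from 101000 bp held 129, 33, 74, and 4 fragments, in a domain that reaches the start of the related gene Dmrt3 at 104683 bp. At Zbtb16, a second H3K27me3 site with 70 fragments lay at 186000 bp, past the end of the gene at 181926 bp. These bins were found by their counts and carry no test.

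**Figure D4:**
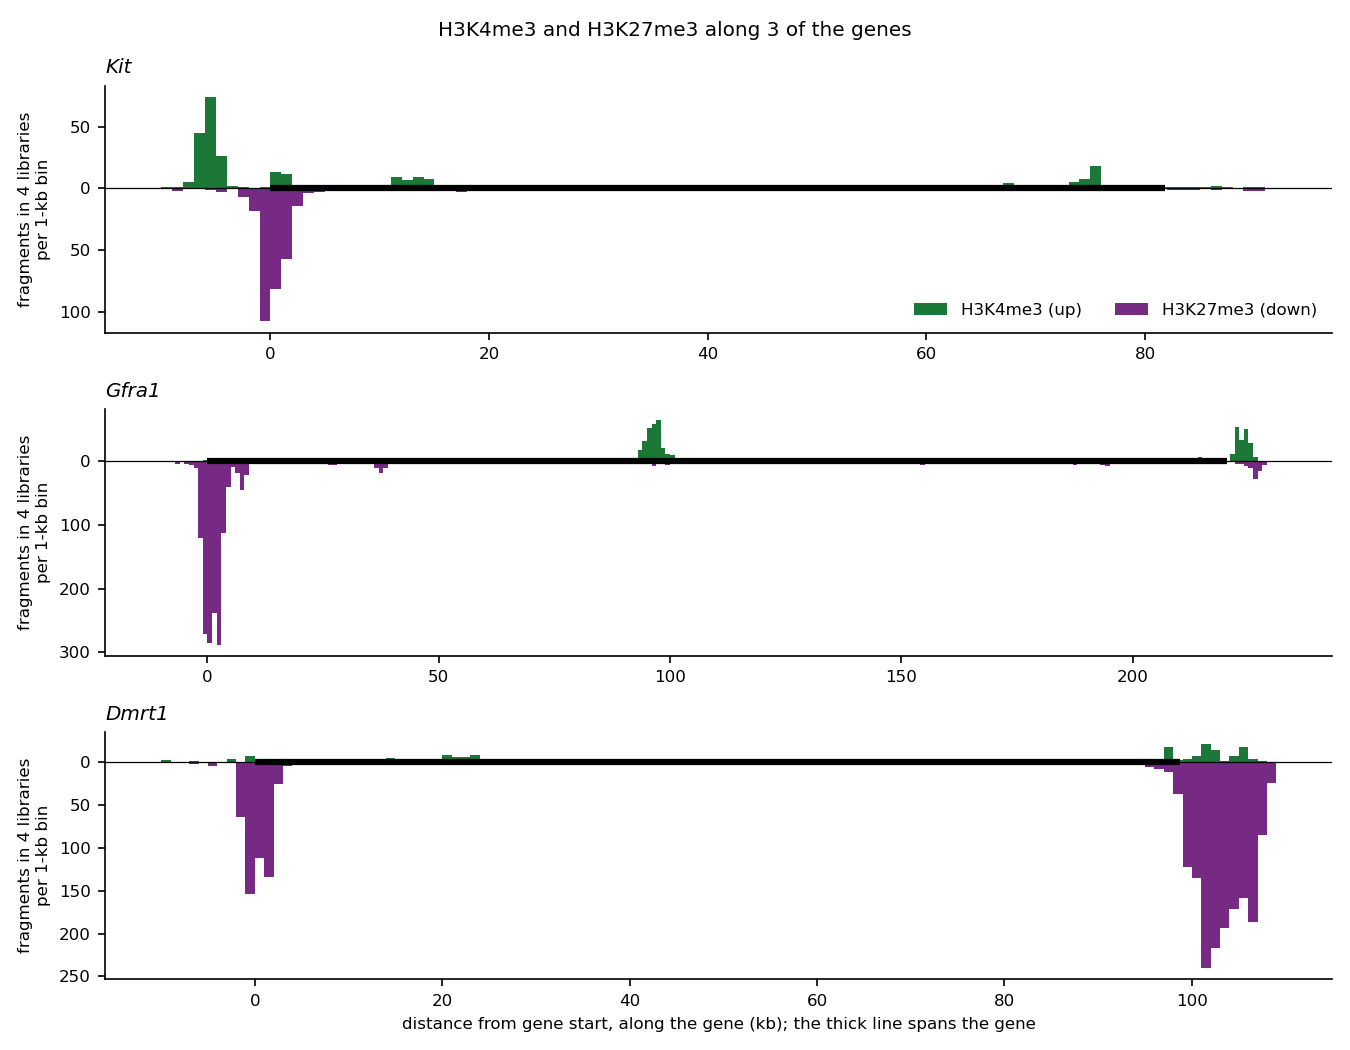
Distinct fragments of H3K4me3 (green, upward) and H3K27me3 (purple, downward) in 1-kb bins, summed over 4 libraries (y axis), by distance from the gene start in kb (x axis) for Kit, Gfra1, and Dmrt1, with a thick line over each gene. H3K27me3 lies at the 3 starts and beyond the end of Dmrt1, and H3K4me3 lies upstream of Kit (74 fragments in its top bin) and in and past Gfra1 (64 in its top bin).

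Over whole gene bodies, which include the gene start, 4 genes exceeded IgG in H3K4me3 and 4 in H3K27me3. For H3K4me3 these were Id4 and Nanos3 (above), Sohlh1 (8, 45, 4, and 20 fragments, adjusted p = 0.0482), and Kit (20, 65, 13, and 40, or 3.54 times IgG with a 95% interval from 1.35 to 13.2, adjusted p = 0.0213), against 37.9% of all coding genes. When every deposited fragment was counted, 1 of the 10 genes was called for H3K4me3, and without the IgG library of KO replicate 1 the number was also 1. For H3K27me3 they were Dmrt1 (205, 42, 130, and 11 fragments, 8.07 times IgG, interval 3.43 to 25, adjusted p = 0.000886), Zbtb16 (323, 42, 243, and 11, 3.79 times, 2.35 to 6.54, adjusted p = 0.00179), Gfra1 (730, 83, 543, and 34, 3.61 times, 2.64 to 5.08, adjusted p = 0.00211), and Kit (107, 8, 78, and 4, 5.12 times, 1.97 to 19, adjusted p = 0.0141), against 20.9% of all coding genes. Much of this H3K27me3 lay near the start: of 619 fragments over the Zbtb16 body, the bins from 0 and 1000 bp held 208 and 229. Without the first 1000 bp of each body, 3 of the 10 genes were called for H3K27me3 and 2 for H3K4me3.

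Among the 10 promoters, H3K9me3 was highest at Gfra1. Over gene bodies, per kb, it was highest at Sohlh2 (mean of 0.162 FPM per kb), and Gfra1 (0.0561) lay above 40.8% of coding genes. Promoters held from 0 to 9 H3K9me3 fragments per library, where an even spread over the genome would put 3.68 to 4.95 fragments in such a window. Gfra1 (5, 6, 9, and 6 fragments) lay above that spread in each library, at 1.01 to 1.99 times, and Nanos2 (1, 4, 0, and 3) in KO replicate 2, while the other 8 promoters lay below it in each. By mean H3K9me3 FPM, Gfra1 stood above 92.2% of coding genes, Zbtb16 (4, 2, 3, and 1) above 80.4%, Nanos2 above 78.5%, and the other 7 above smaller shares, down to 38.2% at Kit. Away from the gene starts, 10, 2, 7, and 9 H3K9me3 fragments lay within 1000 bp of the start of Kit-205, a noncoding transcript in intron 13 of Kit. Gfra1 and Zbtb16 were the only 2 promoters with at least 10 fragments, and neither passed the test against IgG (adjusted p = 0.536 for both), in which 1.5% of 4614 promoters tested were called in either direction. At the depth of IgG this test found few of the changes put into simulated H3K9me3 counts, so no difference from IgG could be shown or set aside here. Over gene bodies, H3K9me3 was lower than IgG at Dazl (0, 3, 4, and 5 fragments against 2, 4, 0, and 0 for IgG, 0.0684 times, interval 0.0237 to 0.222, adjusted p = 0.0400) and Gfra1 (52, 79, 62, and 83 against 8, 12, 5, and 15, 0.236 times, 0.169 to 0.337, adjusted p = 0.0363). Of all coding genes, 11.4% were lower. The median log2 difference of all gene bodies tested was itself -1.41, against -3.87 at Dazl and -2.08 at Gfra1. With libraries scaled to their gene body fragments the median was -0.99, and 1 of the 10 genes passed. Without any 1 of the 4 IgG libraries, neither gene passed.

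Loss of H2A.B was compared at the same promoters. At an adjusted p under 0.05, limma-voom called 0 of the 12780 promoters tested for H3K4me3, 0 of 6492 for H3K27me3, and 0 of 4290 for H3K9me3 (0.0% in each), while 402, 154, and 74 had an unadjusted p under 0.05, of which none belonged to this set. With limma-trend the numbers called were also 0. In simulated counts with spread between replicates, limma-voom found 46.0% of the promoters changed in H3K4me3 and 57.5% of those changed in H3K27me3. A promoter not called between KO and WT is therefore not shown to be unchanged. For H3K4me3, the log2 difference of KO from WT was 0.76 ± 0.51 (SE) at Id4, 0.22 ± 0.35 at Dazl, 0.22 ± 0.53 at Sohlh1, -0.25 ± 0.91 at Nanos3, and -1.37 ± 0.79 at Kit (adjusted p = 0.999 for each). The median of all promoters tested was 0.17, and -0.02 with libraries scaled to their promoter fragments. As each library was left out, the difference at Id4 ran from 0.33 (without WT replicate 1) to 1.76 (without WT replicate 2). Both KO libraries lay above both WT libraries in H3K4me3 FPM at Dazl and Id4 and below them at Kit, which is 3 of the 5 tested, and 34.6% of all promoters tested had KO and WT values that did not overlap. Within the sibling pairs, KO was also above WT in both at Sohlh1 (4.45 and 3.82 FPM, 7.95 and 6.42 FPM), and the direction differed at Nanos3. From summed fragments, KO was 1.14 times WT at Dazl (95% interval 0.802 to 1.64), 1.56 times at Id4 (0.914 to 2.77), and 0.347 times at Kit (0.0915 to 1.15), where the intervals cover counting error only.

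For H3K27me3, the log2 difference was 0.55 ± 0.64 (SE) at Dmrt1, 0.09 ± 0.56 at Zbtb16, -0.19 ± 0.59 at Gfra1, -0.19 ± 0.81 at Sohlh1, -0.27 ± 0.66 at Kit, and -0.76 ± 0.91 at Sohlh2 (adjusted p = 1.0 for each). KO and WT values overlapped at all 6, and at 14.9% of all promoters tested they did not. Within the sibling pairs, KO was below WT in both at Kit (24.7 and 30.1 FPM in replicate 1, 9.83 and 9.98 FPM in replicate 2) and Sohlh2 (6.83 and 9.68, 2.81 and 4.99), where the WT values of replicate 2 rest on 2 fragments and 1 fragment, and the direction differed between the pairs at the other 4. The summed fragments came mostly from replicate 1, with 315 of 340 in KO and 203 of 216 in WT at Gfra1. From these sums, KO was 1.08 times WT at Gfra1 (95% interval 0.906 to 1.28) and 1.15 times at Zbtb16 (0.932 to 1.43). The intervals cover counting error only, not the spread between animals, and the direction at Gfra1 is opposite to that of its log2 difference. Over the 10 promoters together, H3K27me3 was 225 and 207 FPM in KO and WT replicate 1 and 111 and 125 FPM in KO and WT replicate 2, whereas H3K4me3 was 46.0, 39.8, 39.5, and 39.9 FPM. For H3K9me3, 2 of the 10 promoters were tested, and the log2 difference was -0.53 ± 0.63 (SE) at Gfra1 and 0.37 ± 1.22 at Zbtb16 (adjusted p = 0.994 for both). Both KO libraries (5 and 6 fragments) lay below both WT libraries (9 and 6) in FPM at Gfra1, which is 1 of the 2 tested, and 28.9% of all promoters tested had values that did not overlap. Over gene bodies, 0 of the 10 genes and 0.0% of all genes tested were called for each mark. For gene body H3K9me3, the log2 differences of the 7 genes tested ran from -1.99 to -0.27, with a median over all genes of -0.04. Within the sibling pairs, KO was below WT in both at Kit, Dazl, Gfra1, Nanos3, and Sohlh2, and the direction differed at Zbtb16 and Dmrt1. Dazl rests on 0, 3, 4, and 5 fragments. The share of all promoters or gene bodies with the same direction in both pairs was not counted for any mark. These directions therefore do not show a difference of this set from other genes. With the sibling pair as a block, 47 gene bodies were called for H3K9me3, none of them of this set.

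Small H3K4me3 fragments were more frequent, per large fragment, in both KO libraries than in both WT libraries. Summed over the 10 promoters, H3K4me3 gave 21 small fragments (up to 120 bp) and 37 large ones (150 bp or longer) in KO replicate 1, 50 and 78 in KO replicate 2, 5 and 25 in WT replicate 1, and 14 and 70 in WT replicate 2. That is 0.568 and 0.641 small per large fragment in KO and 0.20 and 0.20 in WT. Over all coding promoters the values were 0.655, 0.619, 0.410, and 0.324, and over the whole libraries they were 0.533, 0.637, 0.308, and 0.324. An exact permutation test of 2 libraries against 2 cannot give a p below 0.333. At Dazl, which had the most fragments, 34 small and 54 large fragments in KO stood against 10 and 39 in WT. Tested gene by gene against each library's median, the ratio passed no threshold at the 3 genes with enough fragments. The log2 difference was 0.36 ± 0.57 (SE) at Dazl, 0.41 ± 0.93 at Sohlh1, and 0.17 ± 0.89 at Id4. Limma gave an adjusted p of 0.991 at the lowest, and 0.0101% of 9864 promoters were called. Centring on the median takes out a shift shared by all promoters, so this test does not bear on the excess above. Without centring, 27 promoters were called, all higher in KO, and 0 of these genes. In simulated counts without spread between replicates, the test found 22.0% of the changed promoters.

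For H3K27me3 the 10 promoters gave 0.138 and 0.254 small per large fragment in KO and 0.0743 and 0.087 in WT, each below its whole library (0.196, 0.578, 0.123, and 0.353) and below all coding promoters (0.165, 0.305, 0.104, and 0.171). At Gfra1, which had the most H3K27me3 fragments, 29, 6, 15, and 1 were small and 283, 19, 185, and 12 were large. At Dmrt1, 20, 3, 3, and 1 were small and 116, 19, 102, and 0 were large. For H3K9me3, with 1 to 4 small fragments per library over the 10 promoters, the ratio was 0.133 and 0.231 in KO and 0.211 and 0.0769 in WT, and KO and WT overlapped.

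**Figure D5:**
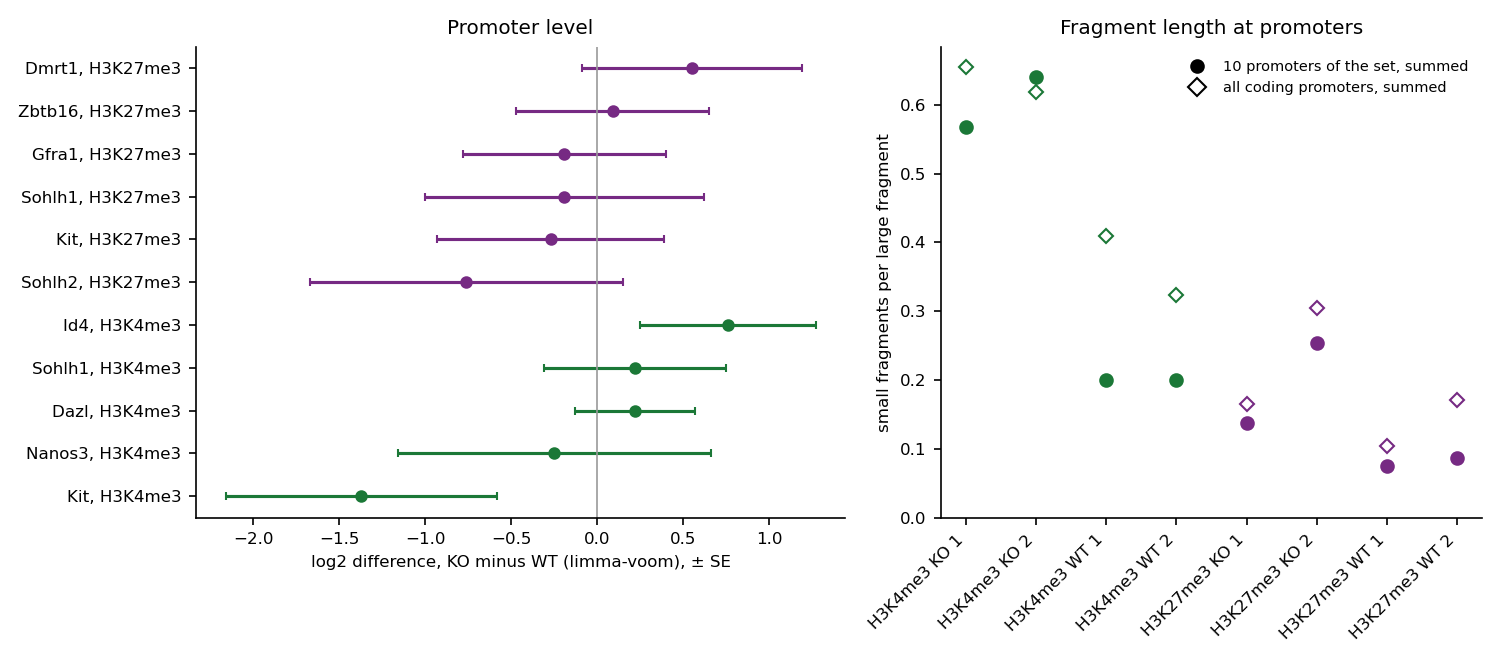
Left, log2 difference of KO from WT in promoter level (x axis) with its SE from limma-voom for the tested genes, H3K4me3 in green and H3K27me3 in purple. Right, small fragments per large fragment (y axis) by library, summed over the 10 promoters (filled circles) and over all coding promoters (open diamonds). The differences lie on both sides of 0, and H3K4me3 is at 0.568 and 0.641 in KO and 0.20 in both WT libraries.

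A list of 21 other spermatogonial genes also held genes of both kinds. H3K27me3 exceeded IgG at 16 of the 21 promoters and H3K4me3 at 6, with both at Bcl6b, Etv5, and Lhx1, against 23.1% and 43.6% of all coding genes. Among those with H3K27me3 were Rarg, a retinoic acid receptor (391 fragments over 4 libraries), Foxc2, a forkhead factor (344), and Lhx1, a LIM homeobox factor (308). By the comparison of the marks, Pax7 (351 H3K27me3 and 0 H3K4me3 fragments), Ret, the signaling partner of Gfra1 (447 and 0), and Neurog3 (346 and 0) were furthest toward H3K27me3. Ddx4, a germ cell RNA helicase, was the opposite, with a mean of 19.1 FPM of H3K4me3 and 0 H3K27me3 fragments, and Taf4b, a germ cell TFIID subunit, had 73 H3K4me3 and 3 H3K27me3 fragments. All 5 promoters of niche signals (Gdnf, Kitl, Cxcl12, Fgf2, and Csf1) exceeded IgG in H3K27me3, with 213 to 497 fragments, and 0 reached the 10 fragments of H3K4me3 and IgG needed for its test. Kitl encodes the ligand of Kit and Gdnf that of Gfra1. H3K27me3 exceeded IgG at the genes of both ligands and both receptors, as it did at every promoter tested in these 2 lists and among the 10 genes.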

How the data were processed

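AutoCUT&RUN was measured in 16 libraries of sorted spermatids. Per the labels and the study's methods, the authors sequenced 25 bp from both ends, aligned to mm10 with Bowtie2 (version 2.3.4.3 in the submitters' processing notes), and deposited 1 list of fragments per library, each with its position and length and no other value. Identical positions were still listed, so each distinct position was counted once. FPM is relative to the distinct fragments on the 19 autosomes, X, and Y, and samples were grouped by their labels.

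Fragments were counted by midpoint within 1000 bp of the gene start and over the gene body of GENCODE vM21, with Python 3.11.15, pandas 2.3.3, and NumPy 2.4.6, and features with at least 10 fragments were tested. limma 3.58.1 (R 4.3.3) compared KO with WT and H3K4me3 with H3K27me3 (voom), and the small-to-large ratio. Marks were compared with IgG by a quasi-Poisson likelihood-ratio test with limma's moderated dispersion in place of the planned limma-voom, which called many unchanged promoters in simulated H3K9me3 counts at the depth of IgG. For H3K4me3 and H3K27me3 limma-voom also made more false calls than the test used, though far fewer than for H3K9me3, and with spread between simulated replicates it found more of the changed promoters. With that spread, the test used found 5.5% of the changed promoters for H3K4me3, 16.5% for H3K27me3, and 0.0% for H3K9me3. Without it, the shares were 69.5%, 81.5%, and 3.0%. The changed promoters were set higher or lower in equal number by a fixed factor, among promoters with more fragments than the test requires. The shares thus cover both directions and are not the share of enriched promoters found. A promoter not called against IgG is therefore not shown to lack the mark. P-values were adjusted by Benjamini-Hochberg over all features tested. They measure only the spread between these samples. Intervals are exact binomial, and intervals and floors (3 fragments for a count of 0) cover counting error only.

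The methods give 2 sibling pairs, and the replicate numbers of the labels were taken as those pairs. The sample titles also carry codes that look like dates and differ between replicates 1 and 2, so a pair and its run cannot be told apart. Same-numbered KO and WT libraries deviated together over promoters (r = 0.242 in H3K4me3, 0.298 in H3K27me3, 0.195 in H3K9me3). The 10 genes were named by the rule that chose them, other genes only from the lists, and bins as those with the most fragments. The genes and lists were chosen with earlier results of these data known. Alternatives were other windows, every deposited fragment, limma-trend, no filter, scaling to counted regions, a replicate block, WT libraries alone, and leaving out each library.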

Additional observations from a re-analysis of the deposited data

How the results depend on the processing

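Of 189 recounts of the genes called among the 10 under an alternative, 171 stayed within 1.5 times the number given above. The 171 include every recount of KO against WT. There 0 genes stayed 0, in fits that called few or none of all genes, so those recounts do not show stability. The number above IgG in promoter H3K4me3 fell from 3 to 0 with libraries scaled to counted regions and to 0 with the WT libraries only. In 500 and 2000 bp windows it was 2 and 4. The number above IgG in promoter H3K27me3 fell from 6 to 3 with the WT libraries only, and it was 6 and 7 in those windows. The number below IgG in promoter H3K9me3 went from 0 to 2 with limma-trend and to 1 with limma-voom, the test planned first, which became an alternative after seeing the data. Over gene bodies, the number above IgG in H3K4me3 went from 4 to 1 with every deposited fragment, 1 with scaling to counted regions, 2 without the first 1000 bp, and 0 with the WT libraries only, and from 1 to 4 as each library was left out (1 without the IgG library of KO replicate 1 and 2 without that of WT replicate 1). The number below IgG in gene body H3K9me3 went from 2 to 5 with every deposited fragment, 1 with scaling, and 0 with the WT libraries only, and from 0 to 2 as each library was left out.

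With the sibling pair as a block, the number for gene body H3K9me3 against IgG was 3, no other number of the 10 genes changed, and over all genes 6283 in place of 2917 gene bodies and 31 in place of 69 promoters were called in H3K9me3 against IgG. Between KO and WT no alternative called any of the 10 genes. In H3K4me3, scaling to counted regions brought the log2 difference to 0.03 at Dazl and Sohlh1, and a 500 bp window brought that of Id4 to 0.1. Uncalled log2 differences of KO from WT changed sign in H3K4me3 at Dazl (-0.02 in a 500 bp window) and Nanos3 (0.79 with every deposited fragment, 0.33 with limma-trend, and 0.03 with no filter), and in H3K27me3 at Zbtb16 (-0.01 with limma-trend and -0.07 with scaling) and Gfra1 (0.10 in a 2000 bp window). As each library was left out they ran from -1.05 to 0.34 at Nanos3 and -0.31 to 0.64 at Sohlh1 in H3K4me3, and in H3K27me3 from -1.40 to 0.81 at Kit, -0.78 to 0.58 at Zbtb16, -0.96 to 0.24 at Gfra1, -0.92 to 0.14 at Sohlh1, and -0.05 to 2.24 at Dmrt1. Without a change of sign, they ran from -1.6 to -0.76 at Kit and 0.1 to 0.47 at Dazl in H3K4me3, and from -1.42 to -0.18 at Sohlh2 in H3K27me3. The cause was not tested.

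Over all genes, promoters called between KO and WT went from 0 to 9 in H3K4me3 (without WT replicate 2) and from 0 to 15 in H3K27me3 (without KO replicate 1, with 9 in a 2000 bp window and 1 with no filter or without WT replicate 1), and gene bodies from 0 to 5 in H3K27me3 (without WT replicate 1, with 3 from every deposited fragment and 1 with no filter) and from 0 to between 1 and 53 in H3K9me3 as each library was left out. Against IgG, H3K4me3 promoters went from 9623 to 3664 with scaling and 0 with the WT libraries only, H3K27me3 promoters from 5221 to 2834, and gene bodies from 9549 to 0 and from 7829 to 4009, also with the WT libraries only. H3K9me3 against IgG was the least stable: 69 promoters became 3174 with every deposited fragment, 3516 with limma-trend, 1183 with limma-voom, 262 with no filter, 10 and 421 in 500 and 2000 bp windows, 0 with the WT libraries only, and 17 to 79 as each library was left out, and 2917 gene bodies became 10047, 12968, and 12120 under the first 3 of these, 0 with the WT libraries only, and 640 to 4139 as each library was left out. For the small-to-large ratio, 1 promoter became 4 with every deposited fragment, 0 and 3 in the windows, 27 with no centring, and 0 to 2 as each library was left out. Depth was lowest in the IgG libraries, with 159611 to 270598 fragments each, and in H3K27me3 WT replicate 2, with 200457.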
